A study of Homo sapiens with 41 samples.

Results

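The effect of vemurafenib on mixed sensitive-resistant melanoma tumours was read from 6 of the 41 samples of the series, 3 mixed tumours given vehicle and 3 given the drug. These samples were chosen by their labels, not by any measured value. The series sequenced RNA of human cancer lines, in culture and as tumours in mice, with and without an inhibitor of their driver kinase. A375 is a melanoma line with mutant BRAF, and A375R is the cell line named in the labels of these tumours, read here as its vemurafenib-resistant derivative. Mixed tumours were read from the letters SR in the titles and from the growth protocol, which names grafts of A375, of A375 with A375R, and of A375R. Cells were injected under the skin of mice with matrigel. Treated mice received 10 doses of vemurafenib at 75 mg/kg, and control mice received vehicle. The groups set beside them are A375R tumours without added A375 cells, under vehicle or the same drug schedule (n = 3 each), and A375 tumours under vehicle or 10 doses at 75 mg/kg (n = 4 each).

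In all of these tumours RNA was recovered from ribosomes bound to GFP beads, a method known as TRAP that is meant to reach only cells with a tagged ribosome. The titles of the mixed tumours name RPL10a, a protein of the large ribosomal subunit, next to A375R, and where the tag sits in a mixture is not stated. The ratio of injected cells, whether each sample is 1 animal and how mouse reads were treated are not given either, so every p-value rests on a spread between samples that may be technical. Vemurafenib blocks mutant BRAF, and in sensitive cells this silences the MAPK pathway, in which RAF, MEK and ERK kinases act in turn. Active ERK raises its own inhibitors, among them the DUSP phosphatases and the Sprouty proteins, which makes their transcripts a common readout of the pathway. Resistant cells keep the pathway active or grow without it, and in a mixed tumour they can meet signals released by dying sensitive cells.

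Recovered depth was 28248576 to 41807815 reads per mixed tumour library. Levels are normalised reads, that is counts scaled by the size factor of each library, and log2 changes are vemurafenib minus vehicle on the log2(value + 1) scale, as estimate ± SE. Levels compared between tables are in CPM, each value scaled to the sum of its library, and such comparisons are descriptions since the tables were normalised separately. Levels given for A375R tumours in CPM are means over the 6 libraries without added A375 cells, vehicle and treated, and those for A375 tumours are means under vehicle. A gene is said to have risen or fallen where the Benjamini-Hochberg adjusted p of limma was under 0.05. In the first principal component of the A375R table, which held 30.1% of the variance, vehicle replicate 1 of the mixed tumours lay at 52.2, the other vehicle libraries of mixed tumours at 21.7 and 23.1, and the treated mixed tumours between -9.57 and -4.43. Of 13755 genes tested, 478 changed (3.48%), 171 of them higher (1.24%) and 307 lower (2.23%). Among these, 25 rose and 119 fell by at least 2-fold. Without vehicle replicate 1 the count was 105, with 23 higher and 82 lower, and 101 of these were among the 478.

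RNA of A375 cells was measured first, since its loss under the drug would look like a fall. EDN3, which encodes the secreted peptide endothelin 3, is a transcript of A375 tumours (57.9 to 94.0 CPM in 4 vehicle libraries). In mixed tumours under vehicle EDN3 stood at 64.7, 29.9 and 27.3 normalised reads, from 71, 25 and 31 reads, and in all 3 treated mixed tumours it was 0. In A375R tumours without A375 cells it was 0 in 5 libraries and 0.77 in the other one. EDN3 was thus present in every vehicle library of mixed tumours, and against a floor of 3 reads per treated library its mean was at least 14.1-fold higher under vehicle. EDN3 is 1 of the 28 transcripts of the planned measure described below. The median of that measure was 0 in every vehicle library of mixed tumours, so EDN3 does not stand for the set. EDN3 also fell in A375 tumours under the drug, to between 0 and 0.181 CPM, so its loss alone does not separate fewer A375 cells from less EDN3 per cell. More generally, in bulk samples fewer cells of a type and less RNA per cell cannot be told apart.

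A share of A375 RNA was then estimated for each library. The planned measure, the median over 28 transcripts that were above a set level in A375 tumours and near 0 in A375R tumours, was 0 in every vehicle library of mixed tumours and gave no share (exact two-sided permutation test, p = 1). Of those 28, 6 were listed at 0 in all 12 libraries of the A375R table, such as MIF. The A375R and A375 tables differ in the genes they list, so a 0 in these 6 may be a difference in counting. The others were counted in at least 1 of the 12 libraries, and why most were low in mixed tumours was not tested. PCK1, at 39.4 CPM in A375 tumours, was 0, 0 and 6.16 in the vehicle libraries of mixed tumours. HLA-DRA, at 37.8 CPM, was 149, 62.1 and 44.9 there. A second measure was added after the data had been seen. It took transcripts at 10 or more CPM in every A375 vehicle tumour and at most 1/30 of that level in A375R tumours. It also required detection in at least 3 libraries of A375R tumours alone, which leaves out EDN3. It dropped symbols written like those of unnamed or noncoding loci. Its inputs contain no mixed tumour, but 6 versions of the rule were compared with their shares in the mixed tumours in view, and the version used gives the second highest of the 6. It holds 23 transcripts that overlap no other protein-coding gene and whose level in A375 tumours moved by no more than 1 log2 unit under the drug.

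By this measure the A375 share was 10.5%, 2.87% and 3.19% in the vehicle libraries of mixed tumours and 0.182%, 0.0857% and 0.191% in the treated ones. Every vehicle library lay above every treated library, and vehicle replicate 1 had the largest share. The means were 5.51% ± 4.29 and 0.153% ± 0.0584 (SD, n = 3 each), with an exact two-sided permutation p = 0.1, the smallest that 3 against 3 can give. A375R tumours without A375 cells gave -0.162% to 0.252%. Over the 6 versions the mean share under vehicle ran from 1.23% to 6.02%, and no treated mixed tumour exceeded 0.432%. The planned measure gave 0 in every vehicle library of mixed tumours, and the reason why it differs from the added measure was not tested. Of all 23 transcripts, 17 were lower in every treated library than in every vehicle library and 0 were higher, and 11.2% of all genes tested were lower in this way. Of the 23, 3 were too low to be tested (CXXC4, KLHDC8A and TSIX). Another 10 passed the filter on low values only through the mixed tumours, so no count of falls is given for them. The reverse set, 20 transcripts high in A375R and low in A375 tumours, had 0 falls, 1 rise and a median log2 change of 0.03.

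**Figure D1:**
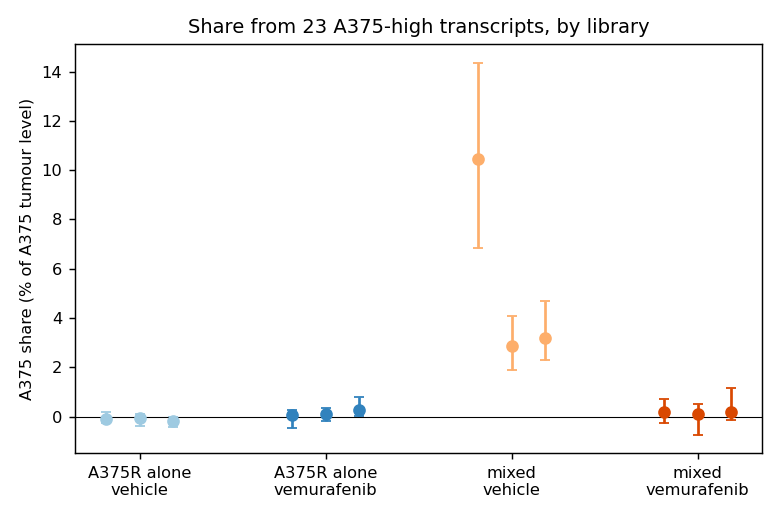
A375 share in percent of the A375 tumour level, by library, for A375R tumours alone and mixed tumours under vehicle or vemurafenib. Points are medians over 23 transcripts and bars their quartiles. The vehicle libraries of mixed tumours sit at 10.5%, 2.87% and 3.19%, and all other libraries lie between -0.162% and 0.252%.

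The share of genes that fell was larger where the A375 level was higher. Since a gene low in A375R cells can pass the filter through the vehicle libraries of mixed tumours alone, these figures use an added filter that reads no mixed tumour, a mean of at least 10 over the 6 A375R tumours alone. It left 13641 genes, of which 160 rose and 274 fell. The ratio of the A375 to the A375R tumour level, in CPM and set to a median of 0 on the log2 scale, was available for 13478 of them. Of 152 genes tested at first that were more than 16-fold higher in A375 tumours the filter kept 106, of which 34.0% fell and 0 rose, with a median log2 change of -0.76. The share that fell was 10.9% between 4 and 16 times, 4.90% between 2 and 4 times and 0.901% where the levels were within 2-fold of each other. Among the genes more than 16-fold lower in A375 tumours 7.65% rose and 0.546% fell. Across genes Pearson's r between ratio and change was -0.39 in mixed tumours and 0.08 in A375R tumours alone, as a description, since genes share the same libraries. Of the 274 genes that fell, 181 were at least 2-fold above in A375 tumours, as were 17.1% of all genes. Without setting the median to 0 these figures were 216 and 31.9%. Of the 160 that rose, 5 were 2-fold above. The tables list 21595 symbols (A375R) and 23368 (A375), with 21375 in common, so a ratio between them can also hold a difference in how a gene was counted.

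**Figure D2:**
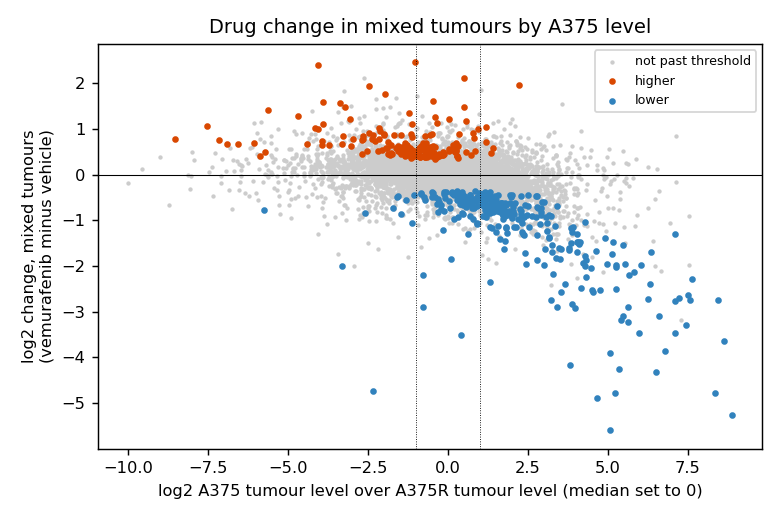
Log2 change in mixed tumours (vemurafenib minus vehicle) against the log2 ratio of the A375 to the A375R tumour level, 1 point per gene of the 13637 tested that have a ratio, by the filter that includes mixed tumours. Dotted lines mark 2-fold, and genes that fell gather on the right, where A375 tumours have the higher level.

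As an added alternative, the share of each library times the A375 tumour level under the same treatment was subtracted. Negative values were set to 0, the rest was divided by 1 minus the share, and the fit was repeated. Then 138 of the 307 falls and 124 of the 171 rises were still past the threshold, and 143 genes were lower and 234 higher in all. This subtraction assumes that A375 cells express each gene in a mixed tumour as in an A375 tumour. For the 152 genes more than 16-fold above in A375 tumours it turned the median log2 change from -1.10 to 1.82. There the share times the A375 level was larger than the fall. These 152 passed the filter that includes mixed tumours, and the filter on A375R tumours alone keeps only 106 of them. Their medians therefore describe the subtraction only. The form first tried, without the division, left 121 lower and gave 500 higher. The numbers after subtraction are therefore given beside the values as deposited, not in their place.

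**Figure D3:**
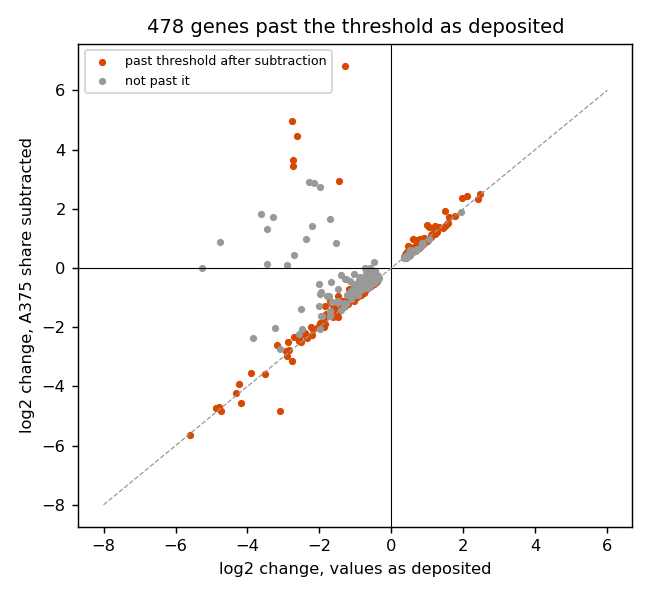
Log2 change of the 478 genes past the threshold, as deposited (horizontal) and after subtraction of the A375 share (vertical). Points on the dashed line did not move. The points above 0 at the left are genes whose change turned positive after subtraction, where negative values were set to 0.

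SLC24A3, a sodium-calcium exchanger, stood at 377, 171 and 182 normalised reads under vehicle and at 4.06, 3.45 and 3.66 under vemurafenib, with 0 to 1.87 in A375R tumours alone. The groups were far apart, and SLC24A3 changed by -5.60 ± 0.48 (limma adjusted p = 1.49e-05). SLC24A3, EDN3, SERPINA3 and IL1A passed the filter on low values only through the mixed tumours, where they are high under vehicle. Their calls are therefore no separate support for a fall. The level of SLC24A3 was 6.49 CPM in A375 tumours but 45.4 CPM in A375 culture, in whole-cell RNA of a table normalised separately. The normalised reads of the mixed tumours are on another scale, and the sum of each library sets them in CPM. In CPM, vehicle replicate 1 of the mixed tumours lay above the A375 tumour level, and vehicle replicates 2 and 3 lay below it. Their mean was above the A375 tumour level, and all 3 were below the culture level. The mean A375 share was 5.51%, and the reason for the difference was not tested. After subtraction the change was -5.66.

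SORL1, a sorting receptor of endosomes, was 765, 108 and 84.4 under vehicle and 4.06, 6.90 and 8.23 under vemurafenib. Vehicle replicate 1 was the highest by far, and without it the change was -3.75 in place of -4.74 ± 0.82 (limma adjusted p = 0.00537). SORL1 differs from most of these genes in being low in A375 cells, at 0.185 CPM in A375 tumours and 0.526 in culture, against 0.890 in A375R tumours, or 0.256 without their treated replicate 2. Among A375R tumours alone, treated replicate 2 reached 129 and the others lay between 1.64 and 19.1.

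SOX10, the transcription factor that sets neural crest and melanocyte identity, was 1021, 508 and 837 under vehicle and 91.7, 254 and 59.5 under vemurafenib. The groups did not overlap, and SOX10 fell by 2.75 ± 0.52 (limma adjusted p = 0.00863). SOX10 changed by -2.53 without vehicle replicate 1 and missed the threshold (limma adjusted p = 0.0644). A375 tumours held 59.2 CPM of SOX10 under vehicle and 425 under vemurafenib. A375R tumours held 2.75 CPM under vehicle and 5.60 under vemurafenib, where replicate 1 was at 10.8. The excess of SOX10 in mixed tumours under vehicle over A375R tumours was 37.2% of its A375 vehicle level, in CPM. The mean A375 share was 5.51%, and the reason for the difference was not tested.

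Of 14 pigment cell genes tested, 4 fell and none rose, beside 2.23% of all genes lower, and the median log2 change was -0.62. S100A1, a calcium-binding protein of melanocytes, went from 484, 277 and 332 to 70.6, 109 and 81.4 (-2.04 ± 0.25, limma adjusted p = 0.000518). ERBB3, a receptor for neuregulin, fell by 1.48 and EDNRB, the endothelin receptor of melanocytes, by 0.97. All 4 were still past the threshold after subtraction, while SOX10, ERBB3 and EDNRB missed it without vehicle replicate 1. MITF, the master regulator of pigment genes, was 351, 399 and 368 under vehicle and 513, 449 and 479 under vemurafenib, a change of 0.37 ± 0.25 that missed the threshold (limma adjusted p = 0.43). TYR, which makes melanin, was 0 in all 6 mixed tumours.

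Other genes among the largest falls were GAS7 (-3.09), a cytoskeletal adaptor, SYTL5 (-2.93), a vesicle trafficking protein, PAPPA (-2.84), which cleaves IGF-binding proteins, SERPINA3 (-2.70), a secreted protease inhibitor, and SLITRK6 (-2.53), a membrane protein of neural cells. SORCS1, a relative of SORL1, changed by -2.76 and LCN1, a secreted lipocalin, by -2.63. These 7 were higher in A375 than in A375R tumours. For SERPINA3 the excess in mixed tumours under vehicle over A375R tumours was 21.2% of its A375 vehicle level, in CPM. The mean A375 share was 5.51%, and the reason for the difference was not tested. SORCS1 and LCN1 turned to 4.96 and 4.46 after subtraction, so their fall was smaller than the share predicts. Negative values were set to 0 in the subtraction, so these figures do not give the size of a rise.

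The interferon list had 8 falls and no rise among 31 genes tested, beside 2.23% of all genes lower, with a median log2 change of -0.32 and 4 genes above 0. BST2, the antiviral tether of budding virions, was 157, 142 and 95.9 under vehicle and 17.9, 25.3 and 37.5 under vemurafenib (-2.28 ± 0.37, limma adjusted p = 0.0034). IFITM1, which blocks viral entry, went from 145, 130 and 95.9 to 26.0, 27.6 and 68.6 (-1.70). IFIT1 fell by 1.23 and IFI6 by 0.71. In every one of these 4 the vehicle libraries lay above all treated ones. BST2 was at 120 CPM in A375 tumours and 0.309 in A375R tumours, IFITM1 at 72.7 and 0.512, IFIT1 at 13.0 and 0.937, and IFI6 at 94.5 and 9.28. After subtraction none of the 8 was past the threshold and the median of the list was -0.05, with BST2 at 2.89 and IFITM1 at 1.64. Negative values were set to 0 there, so the figures for BST2 and IFITM1 do not give the size of a rise. BST2 was also past the threshold without vehicle replicate 1, and IFITM1, IFIT1 and IFI6 were not.

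For these 4 genes, which are the fallen interferon genes with a match, a stretch of promoter around the element GAAANNGAA is shown. It was searched on both strands in 250 bases before the start, where N is any base and matches may overlap. The capitals mark 1 match per stretch in RefSeq sequence of build GRCh38.p14, 5′ to 3′ on the strand of the gene. Of all 27305 promoters 7.06% hold a match, as do 14 of the 23 genes of the interferon list with an entry and 4 of the 6 fallen ones among them. MX1 and PARP9 fell but hold no match, and OAS2 and DDX58 fell but have no entry. The promoters of BST2, IFI6 and IFIT1 hold further matches, some of them in lower case within the printed stretch.
BST2, chr19:17405722-17405790, minus strand: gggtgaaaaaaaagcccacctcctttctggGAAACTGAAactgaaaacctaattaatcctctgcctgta
IFI6, chr1:27672247-27672315, minus strand: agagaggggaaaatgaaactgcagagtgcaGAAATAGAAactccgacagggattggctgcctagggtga
IFIT1, chr10:89392478-89392546, plus strand: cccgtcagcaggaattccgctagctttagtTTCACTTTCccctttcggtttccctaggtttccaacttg
IFITM1, chr11:313970-314038, plus strand: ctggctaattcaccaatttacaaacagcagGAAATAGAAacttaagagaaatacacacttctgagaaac
The match in IFIT1 is on the opposite strand. A match describes these letters only.

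DUSP6, the phosphatase that turns off ERK, was 4047, 4741 and 4195 under vehicle and 4344, 4206 and 5717 under vemurafenib (0.13 ± 0.14, limma adjusted p = 0.67), and the groups overlapped. FOSL1, an AP-1 subunit, changed by 0.19 ± 0.14 and CCND1, cyclin D1, by -0.15 ± 0.18, and both missed the threshold. In A375 tumours, where the drug changed 68.3% of 14069 genes, DUSP6 changed by -2.20, FOSL1 by -1.93 and CCND1 by -0.78. SPRY4, a Sprouty inhibitor of the pathway, was 3298, 3083 and 3000 under vehicle and 1932, 1674 and 1736 under vemurafenib, and fell by 0.81 ± 0.13 (limma adjusted p = 0.00286). SPRY4 fell by 4.31 in A375 tumours, where its vehicle level was 558 CPM against 49.9 in A375R tumours. After subtraction its change was -0.38 (limma adjusted p = 0.177). Of 23 MAPK outputs 5 fell and none rose, beside 2.23% of all genes lower, with a median of -0.05. The others were SPRED1 (-0.60), EPHA4 (-1.31), ELK3 (-0.52) and ETV1 (-0.47), and SPRED1 and ELK3 were still past the threshold after subtraction. SPRY4 was past the threshold without vehicle replicate 1, and SPRED1, ELK3 and ETV1 were not.

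Of 34 growth factors and their binding proteins 3 rose and 3 fell, beside 1.24% and 2.23% of all genes, with a median of 0.20. TGFA, a ligand of EGFR, went from 1388, 761 and 799 to 153, 257 and 361 (-1.96 ± 0.32, limma adjusted p = 0.00348), and vehicle and treated libraries did not overlap. FGF5, a fibroblast growth factor, went from 507, 487 and 408 to 264, 255 and 264 (-0.83 ± 0.16). FGF5 is lower in A375 than in A375R tumours (2.08 and 8.93 CPM), and its change after subtraction was -0.90. FGF5 missed the threshold without vehicle replicate 1 (limma adjusted p = 0.0605). IL1A, an alarm cytokine, was 249, 19.1 and 34.3 under vehicle and 4.06, 8.05 and 8.23 under vemurafenib (-2.90 ± 0.70), and its change was -1.83 without vehicle replicate 1. IL1A passed the filter on low values only through the mixed tumours. It missed the threshold without vehicle replicate 1 or any 1 treated library. The surface receptors ITGB3, an integrin subunit, and EPHA3, an ephrin receptor, changed by -1.99 and -1.98 and both passed the threshold. After subtraction ITGB3 changed by -1.87 and EPHA3 by -0.87, the latter no longer past the threshold.

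Rises were smaller and mostly in genes that A375 tumours express less. Of 169 risen genes with an A375 value, 118 were no higher in A375 than in A375R tumours, in CPM as they stand. So were 17 of the 307 genes that fell and 3809 of all 13637 tested genes with a ratio. Here the median of the ratio was not set to 0. When these 3809 genes were fitted and adjusted on their own, 52 rose and 5 fell. FST, follistatin, which binds and blocks activins, was 1534, 2272 and 1630 under vehicle and 5156, 4722 and 4492 under vemurafenib. Every treated library lay above every vehicle library, and FST rose by 1.42 ± 0.14 (limma adjusted p = 5.91e-05). FST also rose in A375R tumours alone, by 1.09 (limma adjusted p = 0.00757), from 1415, 1815 and 1339 to 3316, 3103 and 3201.

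CKB, the brain-type creatine kinase, was 1119, 1247 and 1198 under vehicle and 2721, 2367 and 2702 under vemurafenib, the tightest of the large rises (1.13 ± 0.09, limma adjusted p = 1.49e-05). In A375R tumours alone CKB changed by 0.15 ± 0.09, and the difference between the responses, 0.97, passed its own test (limma adjusted p = 0.0054). NUPR1, a stress-induced nuclear protein, was 12.8, 22.7 and 33.4 under vehicle and 77.1, 79.4 and 69.5 under vemurafenib (1.77 ± 0.32, limma adjusted p = 0.00653). A375R tumours alone ran from 35.8 to 65.8 in NUPR1, so the vehicle libraries of mixed tumours were the low ones. EPHB6, an ephrin receptor without kinase activity, showed the same order, with 88.3, 53.8 and 98.5 under vehicle, 343, 170 and 179 under vemurafenib, and 171 to 325 in A375R tumours alone (1.48 ± 0.27). CPA4, a secreted carboxypeptidase, rose by 1.59 ± 0.24 and CCNA1, a cyclin, by 1.11 ± 0.20. FST, CKB, NUPR1, EPHB6, CPA4 and CCNA1 were past the threshold after subtraction and without any single mixed tumour library.

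**Figure D4:**
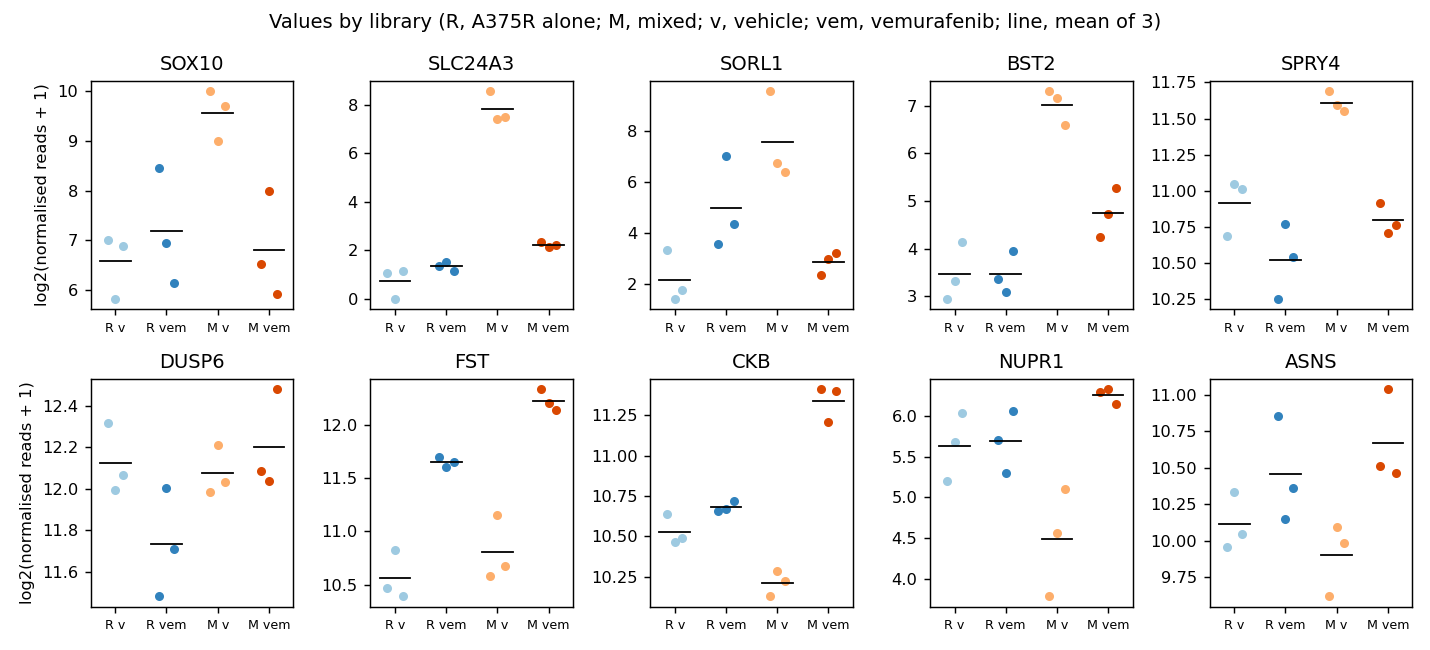
Normalised reads on the log2(value + 1) scale for 10 genes by library, with the mean of 3 as a line. SOX10, SLC24A3, SORL1, BST2 and SPRY4 have their highest mean in mixed tumours under vehicle. For SORL1 a treated library of A375R tumours alone lies within the range of these libraries. DUSP6 overlaps between mixed groups, and FST, CKB, NUPR1 and ASNS are higher in every treated mixed tumour than in every vehicle one.

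Matrix genes rose in 4 of 41 tested members, and 1 fell, beside 1.24% and 2.23% of all genes. MGP, which inhibits calcification, was 39.2, 47.8 and 41.3 under vehicle and 236, 106 and 536 under vemurafenib (2.45 ± 0.57, limma adjusted p = 0.0255). BGN, the proteoglycan biglycan, rose by 1.26 and FN1, fibronectin, by 1.04. COL1A1, the main chain of type I collagen, went from 1755, 1026 and 1627 to 2444, 2693 and 2772 (0.88 ± 0.17), and also rose in A375R tumours alone (1.08). THBS2, thrombospondin 2, fell by 1.63. Fibroblast markers, COL1A1 among them, summed to 39.3 to 82.1 CPM under vehicle and 88.2 to 103 under vemurafenib, and their part in these rises was not tested. COL1A1 itself makes up most of this sum, so the sum is not separate from the rise of COL1A1. MGP, BGN and THBS2 missed the threshold without vehicle replicate 1. MGP also missed it without treated replicate 1 or 3, and FN1 without vehicle replicate 2 or 3 or treated replicate 3.

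Of 26 genes of the ATF4 pathway and unfolded protein response, 5 rose and 1 fell, beside 1.24% and 2.23% of all genes, with a median of 0.31 and 21 above 0. ATF4 is the factor that raises amino acid synthesis and transport when amino acids run short. PHGDH, which opens serine synthesis, went from 2480, 3005 and 3063 to 4110, 5908 and 4810 (0.78 ± 0.14, limma adjusted p = 0.00714). SHMT2, which turns serine into glycine in mitochondria, went from 5734, 7117 and 6627 to 8594, 10412 and 11075 (0.62 ± 0.11, limma adjusted p = 0.0055). ASNS, asparagine synthetase, rose by 0.77, MTHFD2, a mitochondrial folate enzyme, by 0.57 and TRIB3, a pseudokinase, by 0.51. SLC7A11, the cystine importer, fell by 1.14, and its A375 level was above that of A375R tumours (12.1 and 2.28 CPM). PHGDH, SHMT2, ASNS and SLC7A11 were past the threshold after subtraction. SHMT2 alone of these 6 was past it without vehicle replicate 1.

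ASNS is shown with the composite element TGATGNAAN, known as a site of ATF4, from the same RefSeq build and search. The capitals mark the match. Of all promoters 3.18% hold one, as do 3 of the 24 genes of the ATF4 list with an entry and 1 of the 4 risen ones among them.
ASNS, chr7:97872438-97872506, minus strand: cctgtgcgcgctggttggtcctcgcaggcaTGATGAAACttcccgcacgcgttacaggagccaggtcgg

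Oxidative phosphorylation had 3 rises and no fall among 26, beside 1.24% of all genes higher (UQCRC2 0.47, ATP5A1 0.58 and ATP5B 0.39), and none of these passed the threshold without vehicle replicate 1. None of 28 mitosis genes and none of 27 replication genes was called, with medians of -0.07 and 0.11, and MKI67, the proliferation marker, changed by -0.32 ± 0.17 (limma adjusted p = 0.29). Cytosolic ribosomal protein genes had a median of 0.37, with 30 of 30 above 0 and none past the threshold, and a median of -0.45 in A375R tumours alone. Their median was 0.21 without vehicle replicate 1, and 0.52 with 11 of 30 past the threshold without vehicle replicate 2. Among cytokines, IL18 rose from 29.1, 23.9 and 29.0 to 228, 47.2 and 117 (1.95 ± 0.42), with treated replicate 1 the highest, and missed the threshold without vehicle replicate 1 or without treated replicates 1 or 3. IL6 changed by -0.38 ± 0.22 and AXL, a receptor kinase often high in resistant melanoma, by 0.24 ± 0.11, and both missed the threshold.

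**Figure D5:**
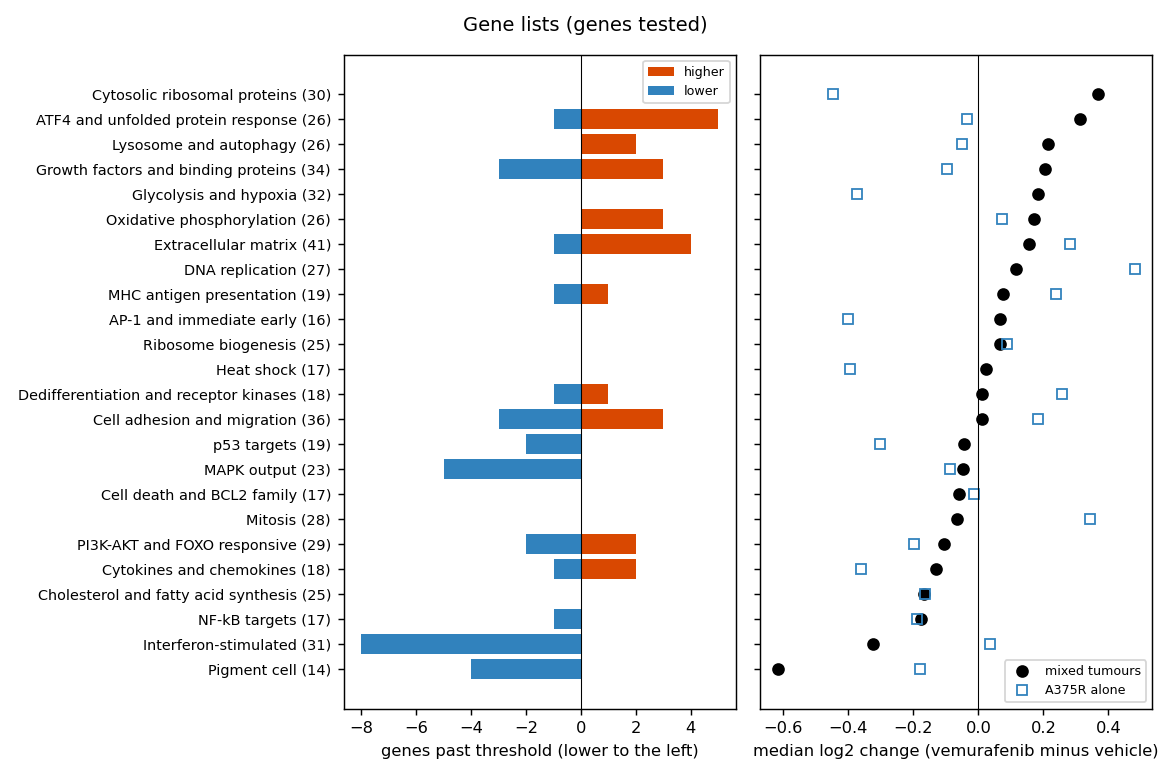
Genes past the threshold in each list (left, falls to the left of 0) and the median log2 change (right) in mixed tumours and in A375R tumours alone, with the number of genes tested in brackets. Interferon genes have the most falls (8 of 31) and ATF4 genes the most rises (5 of 26).

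The response of mixed tumours was compared with that of A375R tumours alone in the same fit. In A375R tumours alone 109 genes changed (0.792%), 0.305% higher and 0.487% lower. Of the 307 falls in mixed tumours 3 also fell there, and of the 171 rises 6 also rose. The difference between the responses passed the threshold for 397 genes (2.89%), 263 higher (1.91%) and 134 lower (0.974%) in mixed tumours, and for 88 of the 307 falls and 54 of the 171 rises. Without vehicle replicate 1 of the mixed tumours that count was 41, and without vehicle replicate 3 of the A375R tumours alone it was 10. ARRDC3, an arrestin-domain adaptor, fell in A375R tumours alone (-1.68) and changed by 0.20 in mixed tumours.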

How the data were processed

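Ribosome-bound RNA of mixed tumours (n = 3 under vehicle, n = 3 under vemurafenib) was analysed from a deposited table that also holds A375R tumours alone. The deposited signal is a read count scaled by the authors with 1 size factor for each library. Tools and builds listed by the submitters' processing notes are DESeq 1.18.0, HTSeq 0.5.4, STAR 2.3.0e, mm9 and hg19, without their roles. Per the labels' protocols the kit was TruSeq v2, which does not mark strand, so overlapping genes cannot be told apart. Whole reads were recovered for 100% of values within 0.1, and no replicate pair agreed within counting noise (chi-square per degree of freedom 10.6 to 49.9).

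Genes with a table mean of at least 10 were tested with limma 3.58.1 (R 4.3.3) on log2(value + 1), all 12 libraries in 1 fit, which understates changes of low genes. On simulated reads for 13631 genes, 86% of 2-fold rises and 82% of falls to 0.5 were recovered, with 12 false calls. These reads were drawn independently for each gene and library, without any shift of a whole library. The false calls are therefore no guide to errors from a library that differs, such as vehicle replicate 1 of the mixed tumours. Alternatives were other pseudocounts, filters and quantile normalisation, the replicate block, edgeR 4.0.16 and DESeq2 1.42.0 on recovered reads, the 2 groups alone, leaving out each library, a filter on A375R tumours alone added after the data had been seen, and subtraction of an A375 share.

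Members and lists were chosen with earlier results of these data known. The A375 share measure used here was added after the data had been seen, and the version adopted was picked from 6 whose results in the mixed tumours were in view. Named genes are the 10 largest changes in each direction (mean of at least 50, no overlap between groups), up to 2 members per list and direction, the 5 largest differences in response and a fixed set. Fewer are named, and MTHFD2, ASNS, FN1, IFI6, IFIT1, EPHA4, ELK3, ETV1, EDNRB, ATP5B and TYR were added after their values were seen. A375 culture values are whole-cell RNA from another table, given as levels only.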

Additional observations from a re-analysis of the deposited data

Results flagged for a closer look

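The difference in drug response between mixed tumours and A375R tumours alone passed its limma test for 397 genes, and for the following genes taken by the naming rule or added to it, given as the log2 change in mixed tumours minus that in A375R tumours alone. Lower in mixed tumours were SORL1 (-7.56), SLC24A3 (-6.19), EDN3 (-5.54), SOX10 (-3.35), SYTL5 (-3.18), SERPINA3 (-3.14), GAS7 (-3.04), LCN1 (-2.95), EPHA3 (-2.60), SORCS1 (-2.43), S100A1 (-2.41), BST2 (-2.27), SLITRK6 (-2.12), THBS2 (-2.04), SLC7A11 (-1.56), IFIT1 (-1.47), TXNIP (-1.21), a thioredoxin inhibitor, and ETV1 (-0.65). Higher were ARRDC3 (1.89), TSLP (1.82), an epithelial cytokine, EEF1A2 (1.75), an elongation factor, NUPR1 (1.72), EPHB6 (1.68), DDIT4 (1.53), an inhibitor of mTOR, NOV (1.28), a matricellular protein, CCNA1 (1.27), CKB (0.97), IGFBP6 (0.88), an IGF-binding protein, SHMT2 (0.62) and UQCRC2 (0.56). SLC24A3, EDN3 and SERPINA3 passed the filter on low values only through the mixed tumours. Without vehicle replicate 3 of the A375R tumours alone 10 genes in all passed this test (2 higher, 8 lower). Without vehicle replicate 1 of those tumours 15 did (4 higher, 11 lower). Most of the genes listed here therefore missed the threshold without vehicle replicate 3. Only ARRDC3 and EEF1A2 were followed singly. The differences of ARRDC3 and EEF1A2 missed the threshold without vehicle replicate 1 or 3 of the A375R tumours alone. That of EEF1A2 also missed it without treated replicate 1 or 2 of those tumours, vehicle replicate 1 of the mixed tumours or treated replicate 3 of the mixed tumours.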

How the results depend on the processing

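Of 56 named results past the threshold, 26 kept their direction and side under every alternative listed at the outset and 19 also under those added later in which they were tested. Vehicle replicate 1 of the mixed tumours decides much: without it 28 of the 56 missed the threshold, and 105 genes were called. It has the largest A375 share by the added measure, and whether the 2 are linked was not tested. Leaving out 1 library gave 105 to 562 calls in mixed tumours (23 to 249 higher, 82 to 346 lower), 1 to 326 in A375R tumours alone, 10 to 539 for the difference in response, 9051 to 9387 in A375 tumours, and 0 to 0.033 percentage points for the planned share (0.022 with all). DESeq2 called 958 in mixed tumours (412 higher, 546 lower), 755 in A375R tumours alone and 887 for the difference. The 2 groups alone gave 229 (47 higher, 182 lower) and 530. With no filter 14 and 185 were called in A375R tumours alone and for the difference. The filter on A375R tumours alone, added later, gave 434 (160 higher, 274 lower), all among the 478. It did not test SLC24A3, EDN3, SERPINA3 or IL1A. The split of 171 to 307 moved most under subtraction.

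Replicate numbers did not pair the mixed tumours (correlations of 0.066, -0.016 and -0.019). The replicate block gave 494 calls in mixed tumours, 298 in A375R tumours alone, 530 for the difference and 9253 in A375 tumours, and 55 of the 56 named results kept their call.

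Subtraction of the A375 share gave 377 calls (143 lower) and 243 for the difference (206 higher, 37 lower). With the lower share 186 were lower, and without rescaling 500 were higher and 121 lower. With the shares of the other versions 428, 416, 410 and 383 were called, 137 to 248 of them lower. The share difference, vemurafenib minus vehicle, was -5.35 points by the version used and -3.50, -2.70, -1.17, -4.28 and -5.74 by the others, and -0.264 by the planned genes summed. Changes that turned after subtraction, with the share used, without rescaling and with the lower share, were SORCS1 (4.96, 4.96, 2.18), LCN1 (4.46, 4.46, 4.46), BST2 (2.89, 2.90, 1.70), IFITM1 (1.64, 1.67, 0.087) and EDN3 (0 in each), and ETV1 (0.19 and 0.27 in the first 2). Negative values were set to 0 in the subtraction, so these figures do not give the size of a rise, and the cause was not tested. DUSP6 ranged from -0.014 to 0.21 and CCND1 from -0.40 to 0.033 without 1 library.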
